A study of Mus musculus with 9 samples.

Results

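Tissue inhibitors of metalloproteinases (Timps) and matrix metalloproteinases (Mmps) were examined in ribosome-bound RNA from 3 adipose depots of the mouse. The set was 10 genes chosen by symbol: the inhibitors Timp1, Timp2, Timp3 and Timp4, and the proteases Mmp2, Mmp9, Mmp12, Mmp14, Mmp15 and Mmp19. All 10 were among the 22527 symbols of the deposited table, each on a single line. The study has 9 libraries, with 3 each from brown fat (BAT), the inguinal white depot beneath the skin (iWAT) and the epididymal white depot inside the abdomen (eWAT). All came from C57BL/6 mice aged 8 weeks that are labelled wild type. Ribosomes were pulled down with an antibody against GFP. The series title speaks of adipocytes, and the name of the deposited table includes adiponectin. The sample labels do not name the transgene, its promoter or the cells that carried the tag. Nor is it stated that replicates come from different animals, so a p-value here measures spread between samples that may be technical. Levels are in FPKM, fragment counts divided by transcript length and by the library's mapped fragments, so that levels of different genes can be compared per length.

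Metalloproteinases are zinc enzymes that cut collagens, laminins and other proteins outside the cell. They are made as inactive proenzymes and are held in check by Timps, which bind the active site. Timp2 is also part of the complex in which the membrane-bound protease Mmp14 activates Mmp2, and Timp3 is held in the matrix and also blocks several ADAM proteases. Fat tissue remodels its matrix as adipocytes enlarge and as vessels grow, and stromal cells and macrophages are well-known sources of several of these proteases there.

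The libraries differed in more than depot. Depth, estimated from single-read steps among low values, was 11.1 to 21.2 M reads in BAT and 16.2 M in eWAT 1, and 2.92 to 4.66 M in the other 5 libraries. The tissue field of BAT 3 names inguinal fat while its title names brown fat, and Ucp1, the proton carrier of brown adipocytes, was at 3054 FPKM there and at 3.38 FPKM or less in every white library. BAT 3 was kept in BAT. Transcripts of other cells varied between groups. The 7 epithelial and skin markers summed to 21.4 to 40.6 FPKM in BAT, 132 to 359 in iWAT and 53.7 to 178 in eWAT, mostly the keratins Krt5 and Krt14. Krt10 of the same list went the other way between BAT and iWAT, with means of 2.46 and 1.02 FPKM. The 9 skeletal muscle markers summed to 104 to 184, 1820 to 2514 and 229 to 1303 FPKM, with Acta1 the largest part in every library. Des, also a muscle marker, went the other way, with means of 39.8, 5.04 and 2.59 FPKM in BAT, iWAT and eWAT. The 9 stromal progenitor markers summed to 5.87 to 16.2, 96.2 to 361 and 38.9 to 69.9 FPKM. In the white depots most of that sum was the single gene Dpt, with means of 206 (iWAT) and 43.9 FPKM (eWAT). Only 3 of the 9 ever reached 1 FPKM, and the receptor Pdgfra was at 0.806 FPKM or less. The 11 macrophage and monocyte markers in the table summed to 4.24 to 8.04, 5.46 to 14.6 and 9.44 to 13.8 FPKM, with Emr1, which encodes F4/80, at 0.380 FPKM or less. No marker in these 4 lists was at 0 in every library. In RNA pulled down as here, cell number, RNA per cell and carry-over from untagged cells cannot be told apart.

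Timp4 had the largest differences between depots among the 6 tested genes, so the 250 bases before its RefSeq start are shown, read from the RefSeq promoter table (build GRCm38.p6) and located by exact match in mm9 at chr6:115202224-115202473, minus strand. The run is written 5′ to 3′ in the direction of the gene, with CG dinucleotides in capitals.
Timp4: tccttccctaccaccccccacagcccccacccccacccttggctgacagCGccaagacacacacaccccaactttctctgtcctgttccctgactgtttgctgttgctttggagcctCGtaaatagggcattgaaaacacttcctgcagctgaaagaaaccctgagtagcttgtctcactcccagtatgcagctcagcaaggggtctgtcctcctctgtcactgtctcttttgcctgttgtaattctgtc
The window holds 2 CG dinucleotides, against a median of 6 over the 32851 promoters of the table, 6 for Timp1, 21 for Timp2 and 18 for Timp3. Among the listed Mmps with entries, Mmp12 has 0 and 2 in its 2 entries, Mmp14 has 10 and Mmp15 has 14. Its GC content is 53.6%, against a median of 52.4%. It overlaps no annotated exon, and the RefSeq start lies 356 bases upstream of the GENCODE start. Searched on both strands, it has no match to TATAAA (found in 12.37% of promoter windows of this length), CCAAT (33.85%), GGGCGG (32.74%) or the nuclear receptor element AGGTCA (14.02%), which says only that these letters are not in this window. The Timp1 and Timp2 windows each have 1 match to CCAAT and 1 to GGGCGG, and that of Timp3 has 1 to GGGCGG. The table had entries for 7 of the 10 genes and none for Mmp2, Mmp9 and Mmp19.

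Timp4 was the inhibitor that set the depots apart. Timp4, a secreted inhibitor that fat tissue is known to make, lies on chromosome 6 (115195634 to 115201867, mm9, minus strand). It was at 1.62, 1.62 and 3.10 FPKM in BAT 1 to 3, at 56.5, 9.93 and 34.4 in iWAT 1 to 3, and at 269, 383 and 322 in eWAT 1 to 3. No depot overlapped another, and the lowest eWAT library was above the highest iWAT library. BAT had a mean of 2.11 ± 0.856 FPKM, iWAT of 33.6 ± 23.3 and eWAT of 325 ± 57.2 (SD, n = 3). By these means eWAT was 154-fold above BAT and 9.67-fold above iWAT, and iWAT was 15.9-fold above BAT. On the log2(FPKM + 1) scale used for testing, which understates changes of low genes, BAT was below eWAT by -6.73 (SE 0.50, limma adjusted p = 1.04e-05) and below iWAT by -3.21 (SE 0.50, limma adjusted p = 0.000608). This scale gave -3.52 for iWAT against eWAT (SE 0.50, limma adjusted p = 0.00913). Of 10374 genes tested, 1 had a more negative difference between BAT and eWAT, Timp4 being at rank 2, and its rank was 4 between iWAT and eWAT and 65 between BAT and iWAT. In eWAT its mean level ranked 286 among 22527 symbols, and in BAT 7679.

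With eWAT 2 and eWAT 3 left out, an alternative chosen after the data were seen, the Timp4 difference between BAT and eWAT was -6.47 (limma adjusted p = 0.00149). That fit has a single eWAT library, assumed to vary like the other groups, whose spread includes the shallow iWAT libraries. About 21.9 to 54.7 reads stood behind each BAT value and 1791 to 5292 behind each eWAT value, from the estimated depths. The call between iWAT and eWAT was lost without eWAT 3 (adjusted p = 0.0585) and without a filter on low values (adjusted p = 0.0767). Within iWAT the adipocyte transcripts Plin1, a lipid droplet coat protein, and Adipoq, adiponectin, stood in the same order of libraries as Timp4. Plin1 was at 302, 89.1 and 105 FPKM in iWAT 1 to 3, and Adipoq at 2169, 456 and 771. Within eWAT the order differed: Plin1 was at 495, 312 and 401 FPKM in eWAT 1 to 3, and Adipoq at 2711, 1856 and 2932. Both were lowest in eWAT 2, where Timp4 was highest. The part of adipocyte RNA in the spread within iWAT or eWAT was not tested. Of the 8 adipocyte markers, 4 were called lower in BAT than eWAT (Adipoq, Cfd, Cidec and Fabp4) and none higher. Their median log2 difference was -0.75. Of all tested genes, 13.5% were called lower in BAT than eWAT and 20.2% higher. Against iWAT, 1 of the 8 was called lower in BAT (Cfd) and 2 higher (Plin1 and Pparg), with a median of 0.02. The shares of all tested genes there were 22.9% lower and 34.5% higher. Adipoq was at 789 to 1125 FPKM in BAT and 1856 to 2932 in eWAT, a difference of -1.39 (SE 0.48, limma adjusted p = 0.0456), while Plin1 overlapped, at 407 to 459 and 312 to 495. The part of adipocyte RNA in the Timp4 difference between BAT and each white depot was not tested either.

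The genes whose log2 values were most alike to those of Timp4 over the 9 libraries were Gas6, a vitamin K-dependent ligand of TAM receptors (Pearson r = 0.993), the retinaldehyde dehydrogenase Aldh1a1 (0.991) and the ADAM protease Adam15 (0.990). Their means rose in the same order of depots: Gas6 was at 4.91, 32.9 and 144 FPKM in BAT, iWAT and eWAT, and Aldh1a1 at 1.04, 14.6 and 78.3. The 9 points share library and depth with Timp4, and these correlations are descriptions.

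**Figure D1:**
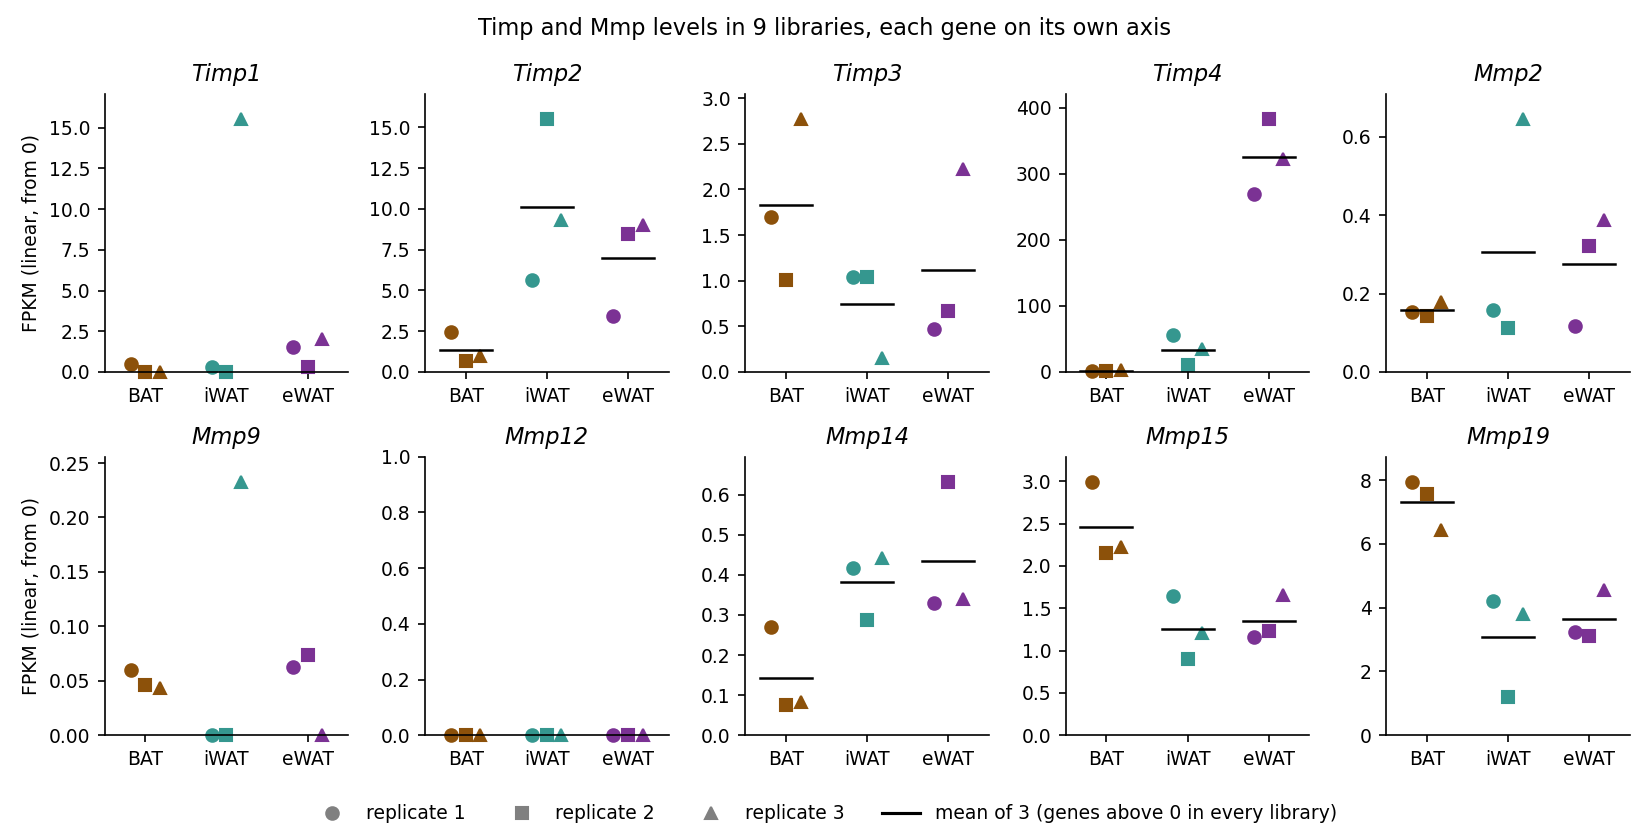
FPKM of the 10 genes in BAT, iWAT and eWAT (linear axes from 0, 1 axis per gene), with a marker for each of replicates 1 to 3 and a line at the mean for genes above 0 in every library. Timp4 lies at 3.10 FPKM or less in BAT and at 269 to 383 in eWAT, Mmp19 is highest in the 3 BAT libraries, and the high Timp1 value is iWAT 3 alone.

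Timp2 was lower in BAT than in both white depots. Timp2 (chromosome 11, 118162383 to 118217054, minus strand), the inhibitor that takes part in the activation of Mmp2, was at 2.45, 0.691 and 0.994 FPKM in BAT 1 to 3. The iWAT libraries had 5.62, 15.5 and 9.30, and the eWAT libraries 3.46, 8.48 and 9.02. Every BAT value was below every white value, while iWAT and eWAT overlapped. BAT differed from iWAT by -2.20 (SE 0.43, limma adjusted p = 0.00198) and from eWAT by -1.73 (SE 0.43, limma adjusted p = 0.0108). The value for iWAT against eWAT was 0.47 (SE 0.43, limma adjusted p = 0.449).

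The order of the 9 libraries by Timp2 was that of the basal keratin Krt5, apart from eWAT 2 and eWAT 3 trading places. Krt5 was at 19.9, 10.3 and 15.8 FPKM in BAT 1 to 3, 68.3, 188 and 127 in iWAT 1 to 3, and 29.3, 87.3 and 79.7 in eWAT 1 to 3. Over the 9 libraries Pearson's r of log2 values was 0.983 for Timp2 with Krt5 and -0.920 for Timp2 with log2 depth. For Timp4 the same values were 0.518 and -0.428. Within eWAT, the deep library eWAT 1 had the lowest Timp2 value, and without eWAT 2 and eWAT 3 the difference from BAT was -0.98 (limma adjusted p = 0.307). The call against eWAT was also lost without a filter (adjusted p = 0.0674) and without BAT 2 (adjusted p = 0.0505). The part of epithelial RNA or of depth in the Timp2 difference was not tested. The genes most alike to Timp2 were the tubulins Tubb5 (r = 0.997) and Tuba1c (0.995) and the phosphoprotein Pea15a (0.995). Tuba1c was at 64.4, 424 and 267 FPKM in BAT, iWAT and eWAT. These are genes of general cell structure and signalling, and 2 of the 3 encode tubulins.

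**Figure D2:**
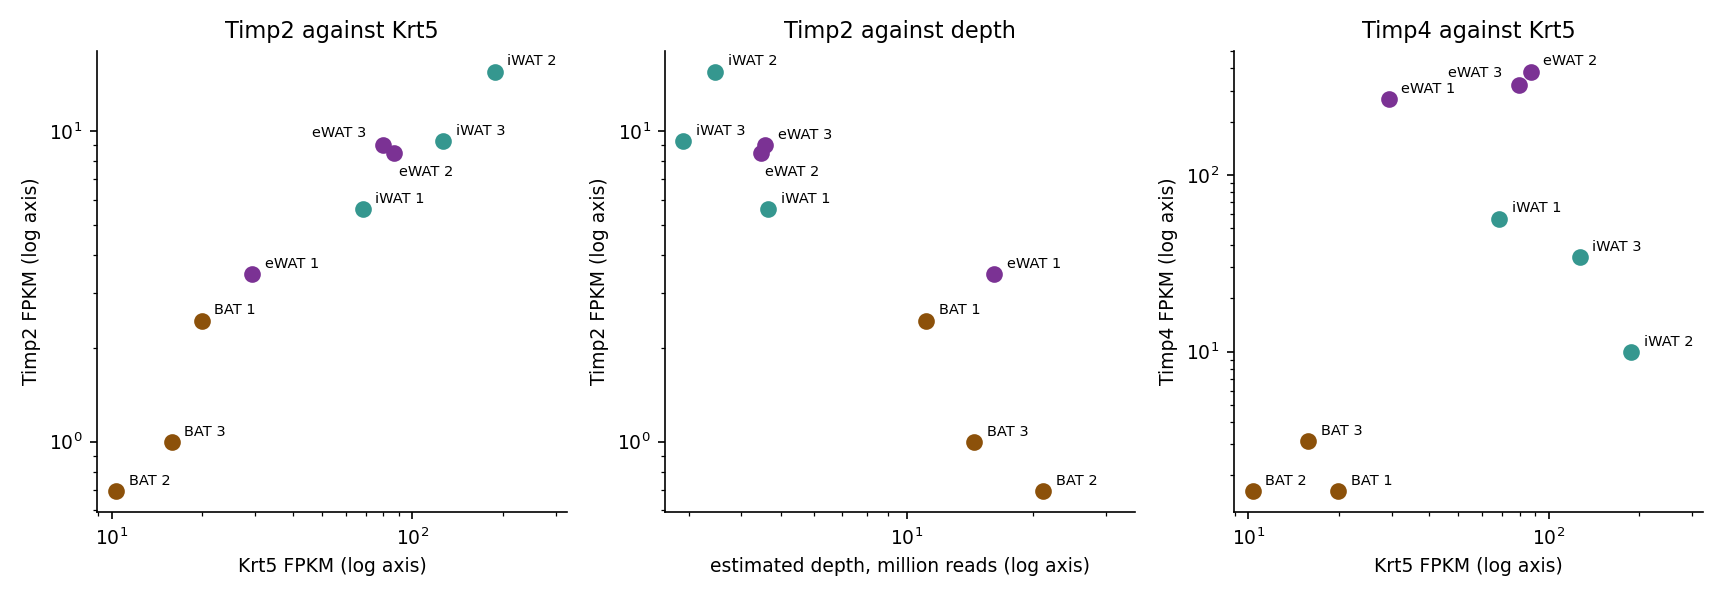
Timp2 against Krt5, Timp2 against estimated depth and Timp4 against Krt5, 1 point per library, all axes logarithmic (FPKM, or M reads for depth). Timp2 rises along with Krt5 across all depots, from 0.691 FPKM in BAT 2 to 15.5 in iWAT 2, whereas eWAT 1 with Krt5 at 29.3 FPKM has Timp4 at 269 FPKM.

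Timp3 and Timp1 did not pass the test between any 2 depots. Timp3 (chromosome 10, 85763117 to 85812251, plus strand), the matrix-bound inhibitor, was at 1.70, 1.00 and 2.77 FPKM in BAT, 1.04, 1.04 and 0.153 in iWAT, and 0.467, 0.666 and 2.23 in eWAT. The highest value was in BAT 3 and the lowest in iWAT 3, and the depots overlapped. The difference was 0.70 for BAT against iWAT (SE 0.36, limma adjusted p = 0.119) and 0.46 against eWAT (SE 0.36, limma adjusted p = 0.341). About 2.02 reads stood behind the iWAT 3 value. Its most alike genes, Kpna6, Pigo and Dnaja4, reached r = 0.898, 0.893 and 0.892, lower than those of Timp2 and Timp4.

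Timp1 (chromosome X, 20447292 to 20451861, plus strand), an inhibitor that inflammatory signals induce, was at 15.6 FPKM in iWAT 3 and at 2.01 FPKM or less in the other 8 libraries. It was at 0.459 in BAT 1 and listed at 0 in BAT 2 and BAT 3. It was at 0.334 in iWAT 1, listed at 0 in iWAT 2, and at 1.51, 0.327 and 2.01 in eWAT 1 to 3. A listed 0 may be a failed estimate, so no mean is given. The iWAT 3 value stood on about 31.0 reads, against about 1.06 in iWAT 1. The limma adjusted p was 0.207 for BAT against iWAT, 0.413 for BAT against eWAT and 0.770 for iWAT against eWAT. The genes most alike to Timp1 over the 9 libraries were Ifi205 (r = 0.950), the chemokine Ccl7 (0.902) and Osmr, the oncostatin M receptor (0.889).

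Among the proteases, Mmp19 and Mmp15 were higher in BAT than in iWAT, the direction opposite to Timp4 and Timp2. Mmp19 (chromosome 10, 128228009 to 128237880, plus strand), a secreted protease that cuts basement membrane proteins, was at 7.94, 7.55 and 6.44 FPKM in BAT. Levels of 4.22, 1.22 and 3.79 were found in iWAT and of 3.24, 3.10 and 4.55 in eWAT. All 3 BAT libraries were above all 6 white ones, and the means were 7.31 ± 0.780, 3.08 ± 1.63 and 3.63 ± 0.800 FPKM (SD, n = 3). BAT differed from iWAT by 1.12 (SE 0.32, limma adjusted p = 0.0134), a call lost without a filter on low values (adjusted p = 0.0555). BAT differed from eWAT by 0.85 (SE 0.32), which missed the threshold (limma adjusted p = 0.0635).

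Mmp15 (chromosome 8, 97876168 to 97898193, plus strand), a membrane-bound protease related to Mmp14, was at 2.99, 2.15 and 2.22 FPKM in BAT, 1.65, 0.902 and 1.21 in iWAT, and 1.16, 1.24 and 1.66 in eWAT. Again every BAT library was above every white one. The difference from iWAT was 0.62 (SE 0.21, limma adjusted p = 0.0278) and that from eWAT 0.55 (SE 0.21, limma adjusted p = 0.0659). The Mmp15 call against iWAT was lost on leaving out BAT 1, BAT 2, BAT 3, iWAT 2 or iWAT 3, with an adjusted p between 0.0569 and 0.118. Against eWAT, Mmp15 and Mmp19 each came under the threshold in 5 of 17 alternatives, median-ratio scaling among them (adjusted p = 0.0370 and 0.0373). Between iWAT and eWAT neither passed the test, with an adjusted p of 0.833 for Mmp15 and 0.570 for Mmp19. Over all tested genes, the median difference between BAT and iWAT was 0.23, and the differences of Mmp15 and Mmp19 stand against that shift. Over the 9 libraries, Pearson's r with Krt5 was -0.771 for Mmp15 and -0.825 for Mmp19, and with log2 depth 0.579 and 0.630. The part of depth or of epithelial RNA in these differences was not tested.

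The proteases most often linked with stromal cells and macrophages were at low levels. Mmp2, a gelatinase and the main substrate of the Mmp14 complex (chromosome 8, 95351227 to 95377316), was at 0.152, 0.143 and 0.178 FPKM in BAT, 0.159, 0.111 and 0.646 in iWAT, and 0.116, 0.322 and 0.388 in eWAT. These values stand on about 1.1 to 8.59 reads. Mmp14, the membrane-bound activator (chromosome 14, 55050441 to 55060095), was at 0.270, 0.0767 and 0.0839 FPKM in BAT, 0.418, 0.286 and 0.442 in iWAT, and 0.329, 0.631 and 0.341 in eWAT. Each BAT library was below each white one, but on about 2.39 to 12.75 reads. Mmp9, the second gelatinase (chromosome 2, 164766280 to 164781350), was listed at 0 in 3 libraries and reached at most 0.232 FPKM, in iWAT 3, on about 2.02 reads. Mmp12, the macrophage elastase (chromosome 9, 7344381 to 7369499), was listed at 0 in all 9.

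These 4 proteases did not reach 1 FPKM in 3 libraries and were not tested, so 6 of the 10 genes were. With the filter removed, Mmp14 had differences of -0.28 (adjusted p = 0.115) for BAT against iWAT and -0.32 (adjusted p = 0.107) against eWAT in limma, and the adjusted p of Mmp2 was 0.608 or more. The highest values of Mmp2, Mmp9 and Timp1 were all in iWAT 3, the library of least estimated depth, and each of those protease values stands on at most 5.35 reads.

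Counted together, 4 of the 6 tested genes were called between BAT and iWAT, where 57.5% of all tested genes were called. Of these, 2 were higher in BAT (34.5% of all tested genes) and 2 lower (22.9%). Between BAT and eWAT 2 of 6 were called, against 33.7% of all tested genes, and both were lower in BAT, against 13.5% lower and 20.2% higher. Between iWAT and eWAT only Timp4 was called, 1 of 6, against 1.74%, with 1.5% lower in iWAT and 0.231% higher. That background of 180 genes became 15 without eWAT 3 and 3315 without iWAT 1. The first 2 shares are near the background. Groups did not overlap for 4 of 6 genes between BAT and iWAT, Mmp15 and Mmp19 above and Timp2 and Timp4 below, where 65.7% of all tested genes did not overlap (38.5% higher and 27.2% lower in BAT). The same 4 genes did not overlap between BAT and eWAT, against 54.6% (32% higher and 22.7% lower in BAT). Between iWAT and eWAT it was Timp4 alone, against 22.7% (19.5% lower and 3.1% higher in iWAT). The median log2 differences of the 6 genes were -0.34, -0.24 and -0.15, against 0.23, -0.02 and -0.18 over all tested genes. The 2 comparisons with BAT share its libraries, and likewise for each depot.

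The balance of inhibitor to protease transcripts was then taken within each library, where it does not depend on scaling. Its protease side holds only the 6 listed Mmps, which summed to 8.97 to 11.4 FPKM in BAT, 2.51 to 6.45 in iWAT and 4.91 to 6.94 in eWAT. The 17 other Mmps, left out here, summed to 1.30 to 2.13, 1.32 to 5.56 and 3.21 to 4.48 FPKM. A ratio to all Mmps would be lower. Summed Timp FPKM divided by summed Mmp FPKM was 0.546, 0.332 and 0.766 in BAT 1 to 3, below 1 in each. This rests on Mmp19, whose level is uncertain because it shares exon bases with an antisense gene: without Mmp19, an alternative chosen after the data were seen, the BAT ratios were 1.79, 1.37 and 2.72, above 1. With all 10 genes the ratio was 9.85, 10.5 and 9.39 in iWAT and 55.9, 73.2 and 48.3 in eWAT. No depot overlapped another. The mean log2 ratio was -0.95 ± 0.61 in BAT, 3.31 ± 0.08 in iWAT and 5.86 ± 0.30 in eWAT (SD, n = 3). Each pair of depots differed with p = 0.10 by an exact two-sided permutation test, the smallest value that 3 against 3 can give, and p = 0.167 after Benjamini-Hochberg adjustment over 15 comparisons of ratios and shares. The close iWAT values came from different make-ups: Timp4 was 89.0, 37.5 and 57.9% of summed Timp in iWAT 1 to 3, Timp2 was 8.85, 58.6 and 15.7%, and Timp1 was 26.2% in iWAT 3.

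In eWAT, Timp4 was 98.0, 97.6 and 96.0% of summed Timp. In BAT no Timp held a majority in any library: Timp4 was 26.0, 48.9 and 45.2%, Timp2 39.3, 20.9 and 14.5%, and Timp3 27.3, 30.3 and 40.4%. The Timp3 share was 32.6 ± 6.85% in BAT, 1.93 ± 1.84% in iWAT and 0.335 ± 0.285% in eWAT (SD, n = 3), with the level of Timp3 itself overlapping between depots, as given above. Without Timp4 the ratio was 0.404, 0.170 and 0.420 in BAT, 1.08, 6.59 and 3.95 in iWAT, and 1.11, 1.77 and 1.91 in eWAT. BAT remained lowest, while iWAT and eWAT then overlapped. On the side of the proteases, Mmp15 and Mmp19 together made up 95.8 to 97.3% of summed Mmp in BAT and 79.1 to 91.1% in the white depots.

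**Figure D3:**
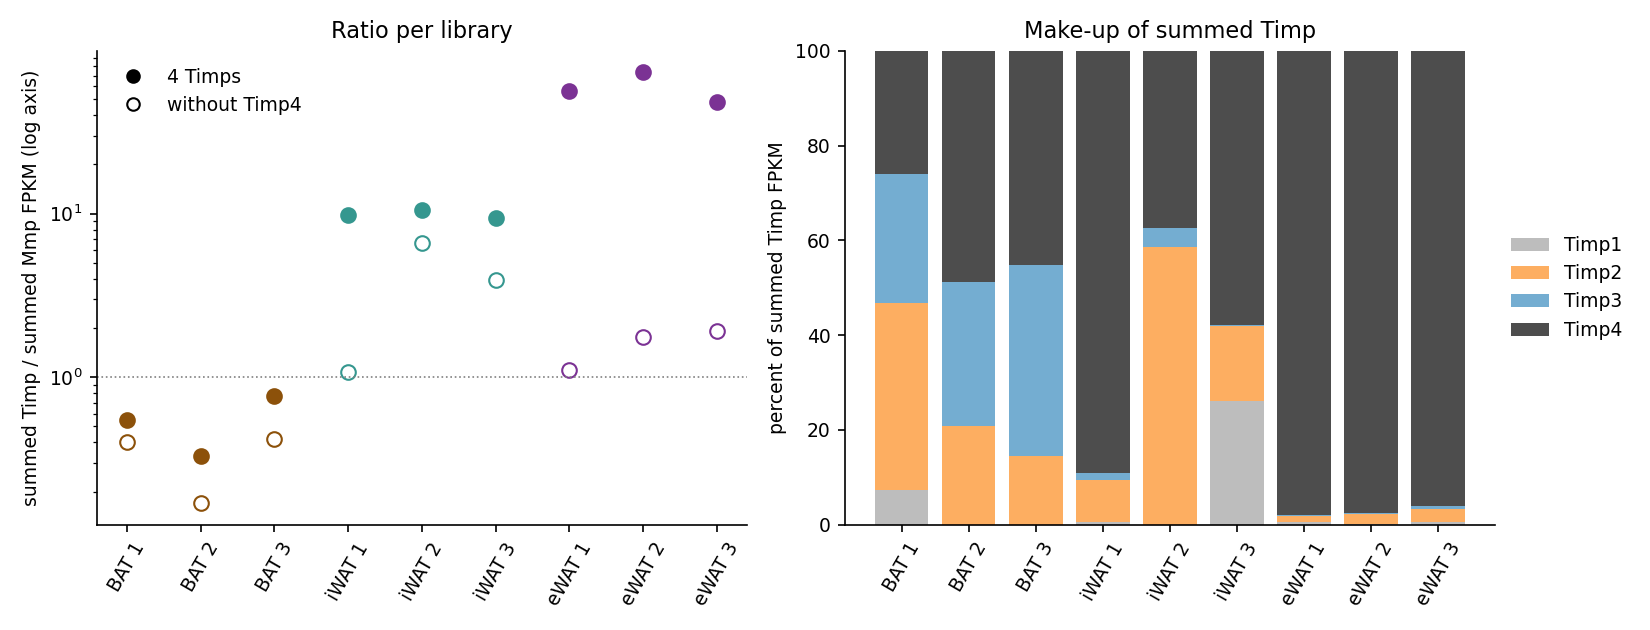
Left, summed Timp over summed Mmp FPKM in each library (log axis, filled for all 4 Timps, open without Timp4, dotted line at 1). Right, the percent of summed Timp FPKM that each Timp holds. The filled points lie at 0.332 to 0.766 in BAT, 9.39 to 10.5 in iWAT and 48.3 to 73.2 in eWAT, where Timp4 makes up 96.0% or more.

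Relatives and partners of these genes were described from lists. Of 17 other matrix metalloproteinases, 5 (Mmp1b, Mmp7, Mmp8, Mmp10 and Mmp13) were listed at 0 in every library and Mmp28 alone was tested. Mmp28 was at 0.881, 1.45 and 0.935 FPKM in BAT and 2.32, 1.60 and 2.44 in eWAT (limma adjusted p = 0.238). Of 12 ADAM proteases, which shed proteins from the cell surface, 5 were tested. Adam15 followed the order of Timp4, at 5.68 ± 1.16, 21.8 ± 8.79 and 55.3 ± 5.57 FPKM in BAT, iWAT and eWAT (SD, n = 3), and was called in all 3 comparisons. BAT against eWAT gave -3.09 for it (SE 0.29, limma adjusted p = 3.62e-05). Adam12 went the other way, at 2.52 ± 0.348 FPKM in BAT against 0.509 ± 0.267 in eWAT, a difference of 1.23 (SE 0.22, limma adjusted p = 0.00182). Adam10, the main shedding enzyme of Notch, was lower in BAT than in iWAT by -1.65 (limma adjusted p = 0.00852), and Adam9 was higher by 1.42 (limma adjusted p = 0.00396). Adam10 also had its highest value, 30.5 FPKM, in iWAT 2, the library highest in Krt5. Adam17, the shedding enzyme of tumour necrosis factor, was not called in any comparison.

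Of 18 ADAMTS proteases, which cut proteoglycans and process procollagens, 3 were tested (Adamts2, Adamts5 and Adamts10). Of these 3, 2 were called lower in BAT against iWAT and all 3 against eWAT, where 22.9% and 13.5% of all tested genes were lower. All 3 were below 1 FPKM in every BAT library and passed the filter through white libraries alone, Adamts10 through eWAT only. They could hardly have been called higher in BAT, so these counts are not a result about the ADAMTS list. Adamts5, an aggrecanase that Timp3 inhibits, was at 0.1002, 0.135 and 0.268 FPKM in the BAT libraries. The iWAT libraries had 5.24, 1.61 and 6.27 FPKM, and those of eWAT 22.6, 14.0 and 22.1. The depots did not overlap, and BAT was below eWAT by -4.11 (SE 0.37, limma adjusted p = 2.5e-05) and iWAT below eWAT by -2.04 (SE 0.37, limma adjusted p = 0.0257). Adamts2, which trims procollagen, was below eWAT by -2.21 in BAT (limma adjusted p = 0.00395).

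Of 13 listed names of the plasminogen system and of proprotein convertases, which activate proenzymes, 11 were in the deposited table and 6 were tested. Of the 6, 1 was called between BAT and iWAT, 2 between BAT and eWAT and 1 between iWAT and eWAT. The shares of all tested genes were 57.5, 33.7 and 1.74%. Furin, the convertase that activates membrane-type metalloproteinases, was at 16.8 ± 2.82 FPKM in BAT and 9.85 ± 1.54 in eWAT, a difference of 0.71 (SE 0.23, limma adjusted p = 0.0346). Serpine2, protease nexin, was at 46.4, 22.9 and 26.7 FPKM in eWAT and at 8.997 to 13.2 in BAT, a difference of -1.48 (SE 0.33, limma adjusted p = 0.0065). Plasminogen itself, Plg, reached 0.0216 FPKM at most. Of 14 other inhibitors and surface partners, 8 were tested. Basigin, Bsg, which is known to induce metalloproteinases in neighbouring cells, had means of 405 ± 25.1 FPKM (BAT) and 156 ± 76.3 (iWAT), a difference of 1.48 (SE 0.31, limma adjusted p = 0.00322). Its mean in eWAT was 249 ± 42.8 FPKM, and BAT against eWAT was not called (limma adjusted p = 0.103). Lrp1, the receptor that clears Timps and proteases, was below eWAT in BAT by -1.25 (limma adjusted p = 0.0146). The membrane-anchored inhibitor Reck reached 0.298 FPKM at most.

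Many of the tested matrix proteins that metalloproteinases cut were lower in BAT. Of 29 in the list, 22 were tested, of which 16 were called lower in BAT against iWAT and 17 against eWAT, with none called higher. The share of all tested genes lower in BAT was 22.9% and 13.5%. Their median log2 difference was -1.16 against iWAT and -1.72 against eWAT, and -0.68 between iWAT and eWAT, where 1 was lower in iWAT. Bgn, Col15a1, Col18a1, Col1a2, Col5a1, Col5a2, Col6a1, Col6a3 and Nid2 were below 1 FPKM in every BAT library. They passed the filter through white libraries alone and could hardly have been called higher in BAT. The counts and medians against BAT rest in part on these genes. Nidogen, Nid1, a basement membrane linker, was at 0.950 ± 0.479, 10.1 ± 4.88 and 25.3 ± 6.56 FPKM in BAT, iWAT and eWAT (SD, n = 3), and Col15a1 at 0.247 ± 0.0456, 8.56 ± 4.55 and 13.7 ± 1.74. Decorin, Dcn, a collagen-binding proteoglycan, was at 97.0, 25.0 and 39.5 FPKM in eWAT, 1.08 to 2.33 in BAT and 1.74 to 5.34 in iWAT. The 7 mural and smooth muscle markers summed to 15.7 to 28.8, 43.6 to 129 and 139 to 178 FPKM in BAT, iWAT and eWAT. Most of that sum was Mcam, a surface adhesion protein, with means of 16.5, 81.1 and 145 FPKM. The proteoglycan Cspg4 went the other way, at 5.14 ± 0.208, 4.88 ± 1.08 and 0.779 ± 0.390 FPKM (SD, n = 3), and was called higher in BAT than in eWAT by 1.81 (SE 0.23, limma adjusted p = 0.000237). None of these 7 was at 0 in every library. Their part in these differences was not tested.

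**Figure D4:**
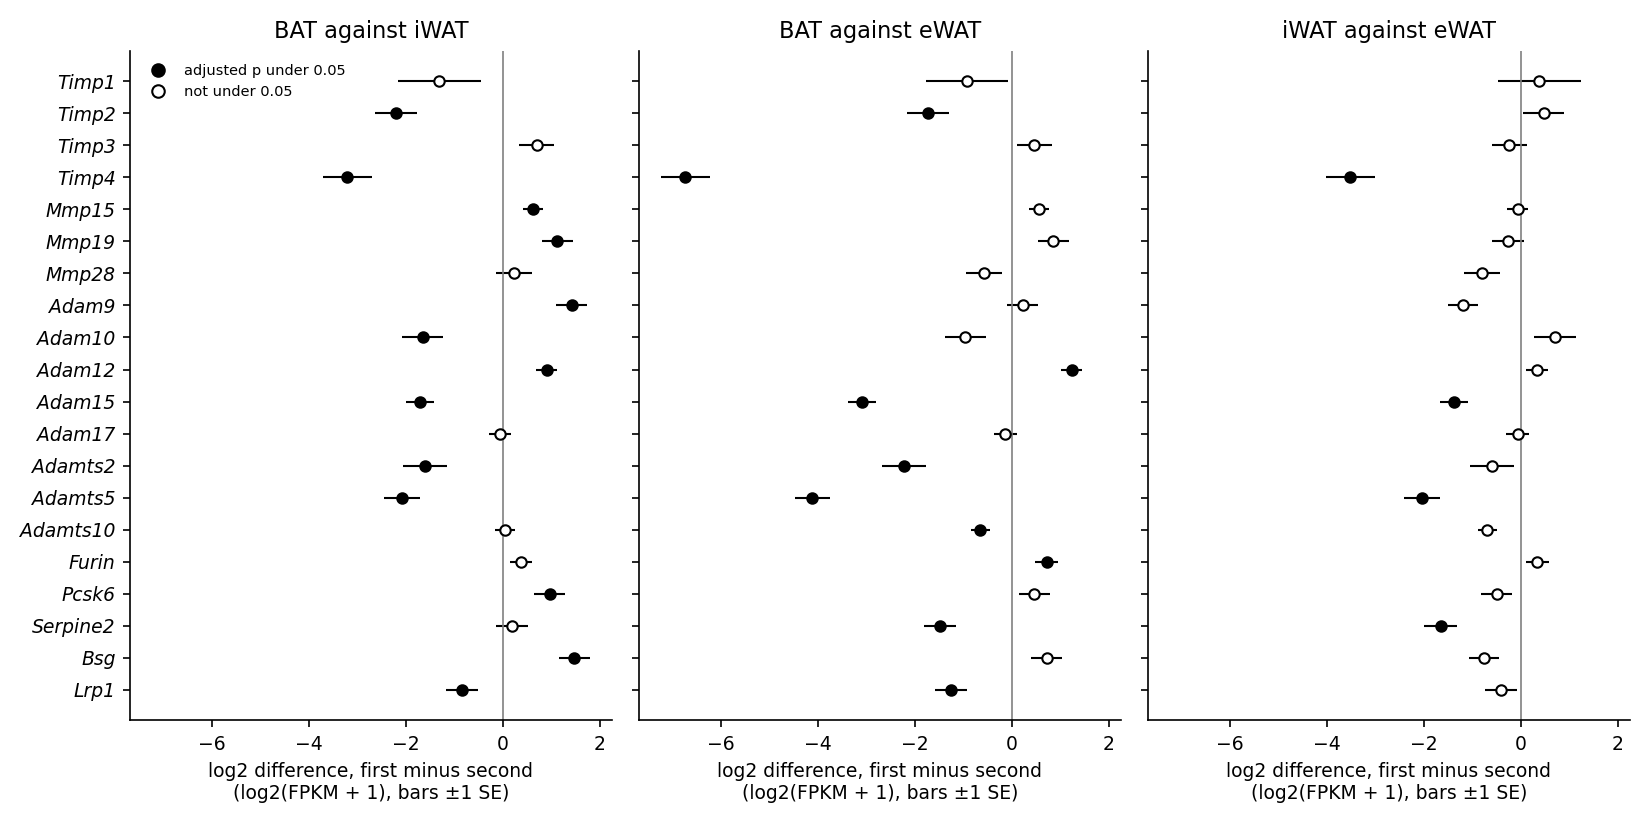
Log2 differences on the log2(FPKM + 1) scale for the 6 tested Timps and Mmps and for 14 tested relatives and partners, with bars of 1 SE, filled where the limma adjusted p was under 0.05. Timp4 reaches -6.73 for BAT against eWAT, and Adam15 and Adamts5 are filled on the same side in all 3 panels.

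Several of these genes overlap others, and whether strand was used in counting is not given in the sources used here. Timp1, Timp3 and Timp4 lie inside the synapsin genes Syn1, Syn3 and Syn2 on the opposite strand. Timp4 shares no exon bases with Syn2, which was at 0.591 to 2.07 FPKM over the 9 libraries and was not called in any comparison (limma adjusted p between 0.618 and 0.841). Timp4 in BAT 1 and BAT 2 lay within the range of Syn2. Timp3 shares 1733 exon bases with Syn3, which was at 0.223 FPKM or less. Timp1 shares none with Syn1, which was at 0.803 FPKM or less and was above Timp1 in iWAT 1, iWAT 2, eWAT 2, BAT 2 and BAT 3. Mmp19 shares 789 exon bases with the antisense gene 1110012D08Rik, which was at 6.36 to 12.45 FPKM, with its lowest value in iWAT 2 as for Mmp19. Over the shared exon bases, reads of Timp3 and Syn3 and of Mmp19 and 1110012D08Rik cannot be told apart without strand, and the values of Timp3 and Mmp19 are uncertain to that extent.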

How the data were processed

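The deposited FPKM of 9 libraries were made with TopHat and Cufflinks against mm9, per the submitters' processing notes; the header names no unit, and versions, annotation and strand use are not given in the sources used here. FPKM divide by transcript length and mapped reads, so overlapping genes and a few very high genes can move them. Of 22996 lines, repeated symbols (259) kept the line of highest mean. Coordinates are from GENCODE vM1 (mm9). Depth was estimated from genes with 1 transcript of at least 1000 bases, less an offset of 200 bases; 44.4 to 64.3% of the values used lay within 0.15 of a whole read, so read numbers are approximate.

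Values were tested as log2(FPKM + 1) in 1 fit over 9 libraries with limma 3.58.1 (R 4.3.3, intensity trend, 6 residual degrees of freedom), for the 10374 genes that reached 1 FPKM in 3 or more libraries, with Benjamini-Hochberg adjustment and calls at 0.05; the code was tested on simulated data. Ratios and shares used exact permutation tests (SciPy 1.17.1). Members and lists were chosen with earlier results of these data known. Named genes were the 10 members, per list and direction up to 3 called genes of largest change whose groups do not overlap, and 3 alike genes per Timp; others were named after their values were seen. The values of 1 gene of the lists are not reported here.

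Deviations from group means correlated at 0.634, 0.534 and 0.165 for same-number iWAT and eWAT libraries, so by a rule of 0.1 the numbers pair these depots, from the values and not the labels. Of different-number pairs, iWAT 2 with eWAT 3 reached 0.228, above the same-number value for replicate 3, so that pair is unclear. Replicate 1 was also the deepest library of each white depot, so pairing and shared depth cannot be told apart. Alternatives were another pseudocount, filters, scalings, weights, the replicate block, 2-depot fits and each library left out.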

Additional observations from a re-analysis of the deposited data

How the results depend on the processing

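Timp4 kept its direction and call in all 17 alternatives for BAT against iWAT (-3.89 to -2.69, adjusted p at most 0.0109) and all 18 for BAT against eWAT, and in 15 of 17 for iWAT against eWAT. Timp2 kept its call in 17 of 17 and 15 of 18 alternatives against iWAT and eWAT. Differences between iWAT and eWAT that missed the threshold changed sign as follows: Timp1 -0.37 with a pseudocount of 0.1; Timp3 0.0326 without iWAT 3 and 0.11 without eWAT 3; Mmp15 0.0412 with median-ratio scaling, 0.0890 with quantile normalization, 0.0468 without iWAT 2 and 0.0242 without eWAT 3; Mmp19 0.12 without iWAT 2. On leaving out 1 library the lowest of these were -0.46, -0.19 and -0.49 for Timp3, Mmp15 and Mmp19. With array weights, whose estimation did not fully converge, Timp1 and Timp3 were called for BAT against iWAT (adjusted p = 0.00822 and 0.0405). Timp1 fell below the filter in several fits and has 12 or 13 alternatives in place of 16 to 18. The replicate block changed no call of a tested gene here. It gave 6080, 3625 and 221 called genes for BAT against iWAT, BAT against eWAT and iWAT against eWAT. The fit without it gave 5961, 3492 and 180. Same-number correlations with BAT were -0.324, -0.225 and 0.121 for iWAT and -0.388, -0.202 and 0.103 for eWAT. Those of replicate 3 were above 0.1, so whether BAT 3 pairs with the white depots is unclear.

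Counts for iWAT against eWAT moved most: 90 with the other pseudocount, 99 without a filter, 116 with median-ratio scaling, 45 with only these depots, 1970 with array weights, and 15 to 3315 on leaving out 1 library, the highest without iWAT 1, the lowest without eWAT 3 and each of the 9 moving it by over 1.5 times. A filter at a mean of 5 FPKM, which tests fewer genes, gave 3783, 2244 and 79. For BAT against eWAT, array weights gave 6625, the fit without eWAT 2 and 3 gave 1411, and leaving out 1 library gave 2141 to 4422, the lowest without a BAT library; for BAT against iWAT leaving out 1 gave 4289 to 6829. Apart from the filter, the cause was not tested. Quantile normalization gave 2936 higher and 2851 lower for BAT against iWAT, where the reported fit gave 3583 and 2378. For iWAT against eWAT it gave 42 higher and 99 lower, median-ratio scaling 33 and 83, and the reported fit 24 and 156.

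Differences in the log2 Timp to Mmp ratio (-4.26, -6.81 and -2.56 as reported) were -3.31, -2.34 and 0.97 without Timp4, and -2.87, -2.14 and 0.73 without Timp1 and Timp4, an alternative chosen after seeing the data. That between iWAT and eWAT thus rests on Timp4. Without Mmp19, also chosen after seeing the data, they were -3.67, -6.40 and -2.73. As shares of a sum without Timp4, the difference for Timp1 was -12.2 percentage points for BAT against eWAT, those for Timp2 were -30.3, -33.6 and -3.28 and those for Timp3 were 49.3, 45.8 and -3.57 over the 3 comparisons.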

Other observations

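Among the partners in the lists, Cav1, the caveolar coat protein, was at 637, 499.5 and 673 FPKM in eWAT and at 281, 99.5 and 146 in iWAT, a difference of -1.90 between iWAT and eWAT (SE 0.35, limma adjusted p = 0.0280). The cathepsin inhibitor Cst3, cystatin C, had means of 1481 ± 122 FPKM (BAT) and 786 ± 412 (iWAT; SD, n = 3), a difference of 1.05 (SE 0.38, limma adjusted p = 0.0354), and at 1825, 1008.5 and 1658 in eWAT. In each of the 9 libraries it was above every Timp. The procollagen enhancer Pcolce2 was highest in BAT, at 3.67 ± 0.858 FPKM against 1.01 ± 0.291 in eWAT, a difference of 1.21 (SE 0.25, limma adjusted p = 0.00456).

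In iWAT 3, the library of least estimated depth, Mmp3 was at 0.774 FPKM, Mmp21 at 0.408 and Mmp27 at 0.722, all below the filter and named after their values were seen.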
